A study of Rattus norvegicus with 13 samples.

Results

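The genes described here encode the constitutive proteasome, the protease that breaks down most ubiquitin-tagged protein of a cell. All names in the count tables made of Psma, Psmb, Psmc or Psmd and a number were taken, except the 3 interferon-inducible subunits Psmb8, Psmb9 and Psmb10. This gave 36 genes of 41182 names listed in any table, 16 of the core particle and 20 of the regulatory particle. Of these, 33 appear in the 2-month table, where Psmb11, Psmd9 and Psmd10 were not analysed, and 36 in each later table. The study profiled RNA of rat heart tissue by bulk sequencing in 13 libraries. WT hearts had no treatment and were taken at 2 months (n = 2) and 6 months (n = 3). Sonogenetic hearts, called ST, had been transduced with AAV2/9-cTnT-MscL-G22S-mCherry and were taken at 2 months (n = 2), 6 months (n = 3) and 8 months (n = 3). This vector is an adeno-associated virus in which the cardiac troponin T promoter, active in heart muscle cells, drives a bacterial mechanosensitive channel with the G22S change joined to the red fluorescent protein mCherry. Sonogenetics uses such channels to make cells respond to ultrasound. The labels do not say whether the months are age or time since the virus, nor whether ultrasound was applied. WT hearts carried no virus, so effects of the virus, of mCherry and of the channel cannot be told apart. The labels call the replicates biological replicates.

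The proteasome is a barrel with a cap on one or both ends. The barrel, or core particle, has outer rings of alpha subunits that gate entry and inner rings of beta subunits, of which Psmb5, Psmb6 and Psmb7 carry the cutting activities. The cap, or regulatory particle, has a base, where Psmc ATPases unfold the substrate and thread it into the barrel, and a lid, where Psmd14 removes the ubiquitin chain. Cells make the subunits in fixed proportion, and when the proteasome is inhibited the transcription factor encoded by Nfe2l1 raises the subunit genes together. In heart muscle the proteasome clears worn contractile and signalling proteins and works beside autophagy.

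Library totals ran from 4.70 to 11.3 M counts (M for mega), so that 3 counts, used as the floor of detection, correspond to 0.639 CPM (counts-per-million) in the shallowest library and 0.266 in the deepest. The transgene MSCL_G22S had 0 counts in all 5 WT libraries and 94 to 1667 counts in the 8 ST libraries, as labelled. Heart muscle markers such as Tnnt2 and Myh6 summed to between 141000 and 161000 CPM in the 2-month libraries (8 of 9 genes analysed) and between 92400 and 109000 CPM in the later ones (9 of 9). Blood, vessel and connective tissue markers were also present in each group.

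Promoter sequence was examined because many subunit genes moved in the same direction at 6 months. RefSeq windows of the rat assembly GRCr8, from 250 bases before to 50 after each gene's start, were available for 31 of the 36 genes. None was at hand for Psma7, Psmb11, Psmd6, Psmd12 and Psmd14. The antioxidant response element core, searched as TGACNNNGC on both strands, is the kind of site to which the Nfe2l1 protein binds with a small Maf partner. It occurred in 7 of 31 windows (22.6%), against 12.1% of all 33469 windows. The CCAAT box occurred in 16 of 31 (51.6%), against 37.5% of all windows, and the heat shock element core GAANNTTC in 2 of 31 (6.45%), against 8.59%. Matches of one motif may overlap those of another. A match is a run of letters and was not tested as a binding site. The full set of windows was neither restricted to genes expressed in heart nor matched to the subunit genes in base content. Of the 10 subunit genes that rose in ST hearts at 6 months, 8 have a window. Among these 8, the first motif occurred in 1 (Psma3), the CCAAT box in 5 and the heat shock motif in 0. The stretches below are shown because they hold the antioxidant response motif in 3 genes of the barrel, among them those of 2 cutting subunits, and in the base scaffold Psmd1, and the CCAAT box of Psmd4, the gene with the highest fold change at 6 months. All are written 5′ to 3′ on the gene's strand and end before the annotated start. Capitals mark the motif or its reverse complement.
Psma3 (chr6:95219689-95219748, plus strand): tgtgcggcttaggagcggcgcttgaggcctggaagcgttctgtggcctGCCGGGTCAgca
Psmb5 (chr15:32047406-32047465, minus strand): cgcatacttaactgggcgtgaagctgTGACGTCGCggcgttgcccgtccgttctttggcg
Psmb6 (chr10:55737828-55737887, plus strand): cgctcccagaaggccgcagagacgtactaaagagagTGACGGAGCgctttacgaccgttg
Psmd1 (chr9:94157780-94157839, plus strand): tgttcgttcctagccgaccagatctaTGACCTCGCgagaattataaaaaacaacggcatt
Psmd4 (chr2:185297202-185297261, minus strand): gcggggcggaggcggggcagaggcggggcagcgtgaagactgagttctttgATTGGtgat
The match lies 12 to 4 bases before the start in Psma3, 60 to 52 in Psmb5, 24 to 16 in Psmb6 and 165 to 157 in Psmd1. In Psmd4 the CCAAT box, read on the opposite strand, lies 9 to 5 bases before the start. Psmd4 holds another CCAAT box 11 to 15 bases after the start and Psmd1 another antioxidant response match 23 to 31 bases after it, which are not shown.

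The subunit genes were all expressed in heart except the pair restricted to other tissues. Psma8, known from testis, reached 0.424 CPM in its highest library and Psmb11, known from thymus, 0.123 CPM, each under the floor of 3 counts. Neither could be tested. Levels in CPM were scaled with edgeR's TMM factors within the 2-month table and jointly over the tables of 6 and 8 months, so levels of 2 months are not set against later ones. The core genes summed to 816 and 800 CPM in the WT hearts at 2 months, and to 695 and 749 CPM in the ST hearts. At 6 months the sums were 1210, 1370 and 1360 CPM in WT and 1430, 1490 and 1450 CPM in ST, and at 8 months 1540, 1490 and 1560 CPM in ST. Both later ST groups lay above every WT heart of 6 months in this sum, and the first WT replicate lay lowest. The regulatory genes summed to 1410 and 1370 CPM in WT and 1230 and 1340 CPM in ST at 2 months. Later they summed to 2140, 2220 and 2240 CPM in WT and 2440, 2440 and 2430 CPM in ST at 6 months, and to 2320, 2260 and 2340 CPM in ST at 8 months. The regulatory sum was thus highest in ST hearts at 6 months, and the core sum in those at 8 months overlapped that of 6 months at 1490 CPM. The ratio of core to regulatory sum was 0.597 ± 0.0284 (SD, n = 3) in WT at 6 months, 0.597 ± 0.0108 in ST at 6 months and 0.664 ± 0.0041 in ST at 8 months. All 3 hearts of 8 months, at 0.664, 0.660 and 0.668, lay above all 6 hearts of 6 months, whose highest value was 0.618. The 8-month hearts form a table of their own, so time point, table and group cannot be told apart in this ratio. Ribosomal protein genes (53 of 77 higher) and genes with very long mRNAs (15 of 23 lower) also moved between these ST groups. Their part in the ratio was not tested. As RNA of whole tissue was measured, fewer cells of a type and less RNA per cell cannot be told apart in these sums or in any level below.

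**Figure D1:**
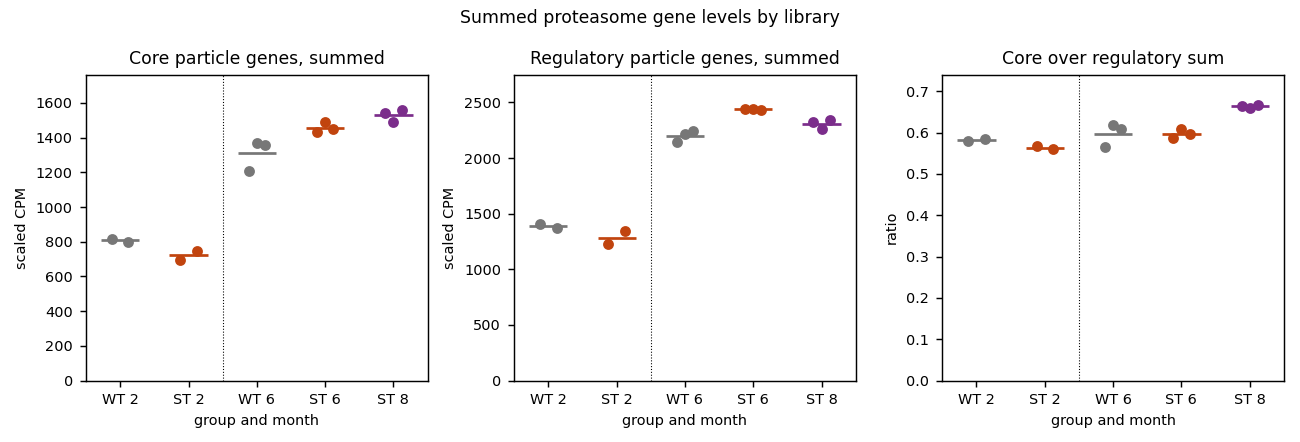
Summed levels of the core particle genes (left) and regulatory particle genes (middle) in TMM-scaled CPM, and their ratio (right), in each library (points) with group means (bars). Groups are WT and ST with the month. The dotted line parts the 2-month table, which is scaled apart, from the later ones. The ratios of ST at 8 months (0.660 to 0.668) stand above those of all 6-month hearts. Time point, table and group cannot be told apart in that difference.

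At 2 months none of the 32 subunit genes tested passed the threshold between ST and WT hearts. The test was edgeR's quasi-likelihood F test on all genes, with Benjamini-Hochberg adjusted p under 0.05 as the threshold. A fold change is given as log2 of the group named first over the other, ST over WT here, also where it stands in brackets after a gene or its levels. Of all 12121 genes tested 4.8% passed it, 2.7% higher and 2.1% lower in ST. DESeq2 called 0 of the 32 as well. In edgeR 6 had an unadjusted p under 0.05, as had 2259 of all 12121 genes, a share near that of the 32. The point estimates leaned to the lower side: 27 of 32 log2 fold changes were below 0, with a median of -0.11 against 0.00 for all genes tested. The groups of 2 did not overlap for 15 genes lower and 1 gene higher in ST (Psmc6), 50% of the 32. Over all genes tested 48.9% did not overlap, so that share is near the background. For 25 of the 32 genes the 95% interval of the difference lay within 1.5-fold either way.

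In the alpha ring, Psma7 stood at 74.4 and 75.3 CPM in the WT hearts and at 51.1 and 64.1 CPM in the ST hearts. Its log2 fold change of -0.38 ± 0.14 (SE, adjusted p = 0.145) had the smallest p of the ring. Psma5 stood at 41.4 and 40 CPM in WT and 31.1 and 32.6 CPM in ST (-0.35, adjusted p = 0.177). Both were lower in each ST heart than in each WT heart, without passing the threshold. Psma1 read 80 and 85 CPM in WT and 76.1 and 79.3 CPM in ST. Psma4, whose product helps to close the gate of the barrel, read 55.2 and 52.7 CPM in WT and 53.1 and 55.4 CPM in ST, with overlapping groups. In the beta ring, Psmb4, a structural subunit, read 62.6 and 60.4 CPM in WT and 44.7 and 48.2 CPM in ST, a log2 fold change of -0.41 ± 0.131 (SE, adjusted p = 0.0921). Among the cutting subunits, Psmb5, of the chymotrypsin-like activity, read 70.3 and 66.2 CPM in WT and 44.2 and 67 CPM in ST. The ST hearts differ most from each other in this gene: its SD of 0.423 on the log2 scale is the largest of any member in that group, where the median is 0.0956. Psmb6, of the caspase-like activity, read 30.7 and 31.7 CPM in WT and 26.9 and 29 CPM in ST, and Psmb7, of the trypsin-like activity, 82.4 and 77.2 CPM in WT and 69.3 and 77.8 CPM in ST. All 7 beta ring genes had a log2 fold change below 0, from -0.41 to -0.09.

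Among the ATPases, Psmc4 read 55.1 and 60.7 CPM in WT and 42.3 and 49.7 CPM in ST at 2 months (-0.33, adjusted p = 0.203). Psmc2 read 80.2 and 73.9 CPM in WT and 61.3 and 72.4 CPM in ST, and Psmc1 73.4 and 66.7 CPM in WT and 69 and 65.1 CPM in ST. Only in Psmc1 of these 3 did the groups overlap. The scaffold genes of the base, Psmd1 (219 and 218 CPM in WT, 202 and 204 in ST) and Psmd2 (196 and 203 CPM in WT, 177 and 208 in ST), had log2 fold changes of -0.11 and -0.05. Psmd4, a ubiquitin receptor of the base, read 60.6 and 53.6 CPM in WT and 41.1 and 48.5 CPM in ST, with a log2 fold change of -0.36 ± 0.14 (SE, adjusted p = 0.177). In the lid, Psmd8, a late-joining subunit, had the lowest estimate of all, with 43.3 and 40 CPM in WT and 27.4 and 32.7 CPM in ST, a log2 fold change of -0.48 ± 0.147 (SE, adjusted p = 0.0794). It missed the threshold, and its 95% interval ran from -0.79 to -0.16. Psmd12 read 93 and 92.5 CPM in WT and 76.6 and 81.3 CPM in ST, Psmd14 31.9 and 29.5 CPM in WT and 30 and 27.2 CPM in ST. Psmd11, whose product clamps the lid to the barrel, read 88.5 and 90.7 CPM in WT and 79.3 and 85.1 CPM in ST. Psmd5, a chaperone of base assembly, read 15 and 13 CPM in WT and 16 and 13 CPM in ST, with overlapping groups. With either ST heart left out, the ST group is a lone heart without a spread of its own, so calls of those fits are not given. Without the second ST heart the median of the 32 subunit estimates was -0.17, and without the first -0.09, in place of -0.11. Erythroid markers summed to 302 to 395 CPM in ST and 145 to 179 in WT at 2 months (1 of 3 tested higher), and mesothelial markers to 17.4 to 20.4 and 10.5 to 10.7 (2 of 3 tested higher). Heart muscle markers summed to 156000 to 161000 CPM in ST and 141000 to 151000 in WT (0 of 8 called by edgeR). Endothelial markers summed to 948 to 979 and 926 to 934 CPM (1 of 6 lower). Smooth muscle and pericyte markers summed to 498 to 529 and 462 to 477 CPM. Of these 0 of 6 were called by edgeR and 4 had an unadjusted p under 0.05, as had 2259 of all 12121 genes. No marker of these lists was at 0 in every library of a group. Ribosomal protein genes had 42 of 63 estimates below 0 (5 called lower, 0 higher), and genes with very long mRNAs 19 of 23 above 0 (1 called higher, 0 lower). These are the lists described with the 8-month hearts. The part of these in the lower subunit estimates was not tested.

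At 6 months 10 subunit genes rose and 1 fell in ST against WT hearts, by at most 1.28-fold. The genes that rose were Psma2, Psma3 and Psma6 of the alpha ring, Psmb1 of the beta ring, the ATPase gene Psmc4, Psmd2 and Psmd4 of the base, and Psmd7, Psmd12 and Psmd14 of the lid. The chaperone gene Psmd5 fell. The 11 called are 32.4% of the 34 tested, against 40% of all 13253 genes tested, of which 19.9% were higher and 20.1% lower. The share called is thus under the background, and the split by direction is 10 to 1 where that of all genes is even. Of the core particle 4 of 14 genes were called and of the regulatory particle 7 of 20, with median log2 fold changes of 0.17 and 0.14. The median over all 34 was 0.14, against 0.00 for all genes tested, and 29 were above 0. Ribosomal protein genes, a list described with the 8-month hearts, leaned to the same side. Of these 69 of 77 were above 0 (median 0.09), with 1 called higher and 0 lower. Genes with very long mRNAs had 12 of 23 above 0 (5 called higher, 3 lower). The part of either list in the subunit results was not tested. The groups did not overlap for 19 genes higher and 1 lower, 58.8% of the 34, against 51.7% of all genes.

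The size of the shift at 6 months depends on the scaling. With library totals alone in place of TMM factors the median of all genes moved by -0.116, their calls split into 1731 higher and 3714 lower in place of 2643 and 2662, and the subunit genes had 3 higher (Psmd4, Psmd12 and Psmd14), 1 lower (Psmd5) and a median of 0.03. Markers of other cells also moved at 6 months. Fibroblast markers summed to 946 to 1010 CPM in ST and 1190 to 1270 in WT (4 of 6 lower, 1 higher), and smooth muscle and pericyte markers to 322 to 461 and 247 to 322 (4 of 6 higher). Erythroid markers summed to 672 to 747 CPM in ST and 373 to 496 in WT (5 of 5 tested higher). None of these was at 0 in every library of a group. Heart muscle markers summed to 92400 to 98800 CPM in ST and 101000 to 107000 in WT (3 of 9 higher, 1 lower). Their part in the subunit results was not tested.

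**Figure D2:**
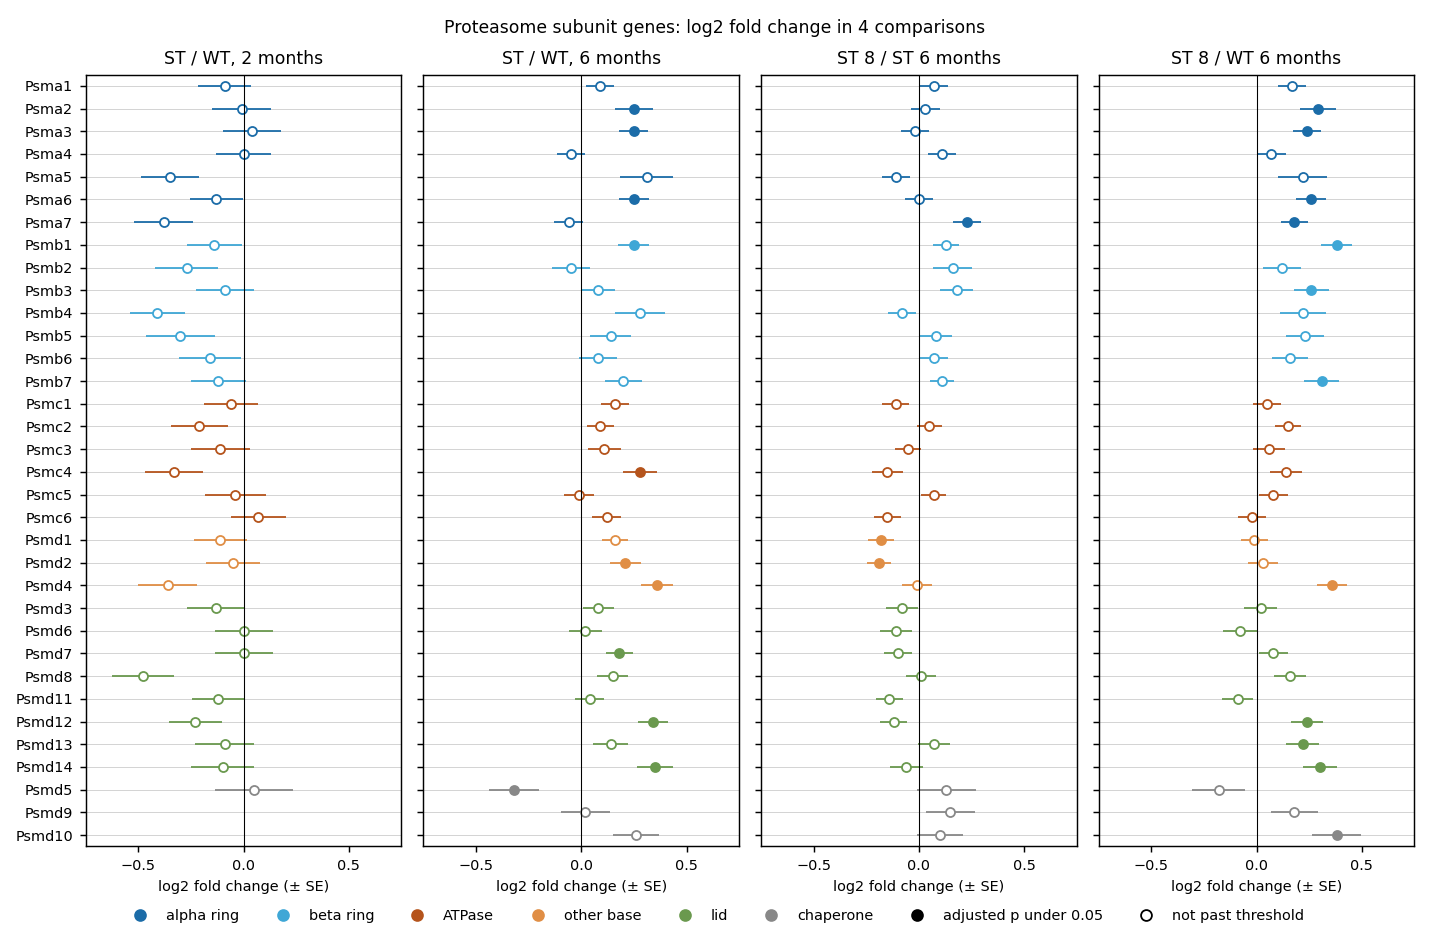
Log2 fold change ± SE of each of 34 subunit genes, by role, in the 4 comparisons; filled points have an edgeR adjusted p under 0.05. No point is filled at 2 months, 11 are filled for ST against WT at 6 months, 3 for ST at 8 against 6 months and 12 for ST at 8 against WT at 6 months.

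Within the alpha ring 3 of 7 genes rose at 6 months. Psma3 stood at 81, 84 and 79.2 CPM in WT and 92, 100 and 96.2 CPM in ST, with no overlap and a log2 fold change of 0.25 ± 0.0684 (SE, adjusted p = 0.0137). Psma6 read 107, 115 and 120 CPM in WT and 139, 137 and 130 CPM in ST (0.25, adjusted p = 0.0144). Psma2 rose by 0.25 (adjusted p = 0.0406), with the call lost in 7 of 16 other settings, DESeq2 and 4 of the 6 left-out hearts among them. In Psma5 the first WT heart stood apart, at 46.7 CPM beside 70.2 and 64.7, with 75.7, 76.8 and 73 CPM in ST. Its log2 fold change of 0.31 ± 0.125 (SE, adjusted p = 0.0643) was not called, though it was in 4 of 16 other settings, among them without the second WT heart (adjusted p = 0.0269). The other 3 genes of the ring showed no call. Psma1 read 118, 110 and 113 CPM in WT and 114, 123 and 126 CPM in ST, Psma4 99.2, 105 and 98.7 CPM in WT and 95.6, 97 and 100 CPM in ST, and Psma7 132, 127 and 130 CPM in WT and 119, 134 and 121 CPM in ST. In each of these the groups overlapped, and the 95% intervals were -0.05 to 0.24, -0.19 to 0.10 and -0.21 to 0.09 on the log2 scale.

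In the beta ring only Psmb1, a structural subunit, was called at 6 months. It stood at 94.3, 107 and 108 CPM in WT and 121, 124 and 121 CPM in ST, a log2 fold change of 0.25 ± 0.0734 (SE, adjusted p = 0.0183). Psmb4 read 68.8, 96 and 99.4 CPM in WT and 105, 113 and 103 CPM in ST. Here too the first WT heart was the lowest of all, and the log2 fold change of 0.28 ± 0.119 (SE, adjusted p = 0.079) was not called. The 3 cutting subunits showed no call: Psmb5 read 83.7, 106 and 106 CPM in WT and 101, 112 and 113 CPM in ST, with overlapping groups. Psmb6 read 74.6, 94.5 and 85.2 CPM in WT and 85.6, 91.1 and 92.2 CPM in ST. Psmb7 read 153, 191 and 191 CPM in WT and 207, 204 and 199 CPM in ST (0.20, adjusted p = 0.101), with no overlap. In all 3 the first WT heart was again the lowest. Psmb3, structural as well, read 51.7, 58.7 and 53.9 CPM in WT and 55.1, 60.1 and 57.5 CPM in ST.

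Of the ATPases Psmc4 alone was called at 6 months, with 65.4, 72.4 and 73.1 CPM in WT and 82.6, 91.7 and 81.1 CPM in ST, a log2 fold change of 0.28 ± 0.0796 (SE, adjusted p = 0.0151). Psmc1 (138, 130 and 137 CPM in WT, 149, 145 and 156 in ST) was higher in each ST heart (0.16, adjusted p = 0.0753). Psmc2 read 143, 139 and 148 CPM in WT and 154, 157 and 146 CPM in ST, and Psmc6 110, 104 and 101 CPM in WT and 110, 119 and 113 CPM in ST. Neither was called. The base gene Psmd4 had the highest fold change of all members. It stood at 88.2, 93.3 and 97.5 CPM in WT and 114, 115 and 128 CPM in ST, a log2 fold change of 0.36 ± 0.0747 (SE, adjusted p = 0.00268). Every ST heart lay above every WT heart, and the call was kept in all 16 other settings tried. The scaffold gene Psmd2, whose product docks shuttle proteins that bring in ubiquitin-tagged substrate, read 257, 291 and 295 CPM in WT and 334, 321 and 317 CPM in ST (0.21, adjusted p = 0.0389). Psmd1, the other scaffold, read 257, 248 and 250 CPM in WT and 280, 286 and 274 CPM in ST (0.16, adjusted p = 0.0591).

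In the lid, 3 of 8 genes rose at 6 months and all 8 estimates were above 0. Psmd12, a scaffold of the lid, stood at 121, 129 and 139 CPM in WT and 168, 165 and 158 CPM in ST, a log2 fold change of 0.34 ± 0.072 (SE, adjusted p = 0.0028). Psmd14, the deubiquitinase, stood at 48.2, 54.3 and 49.6 CPM in WT and 70.6, 61 and 62.1 CPM in ST, a log2 fold change of 0.35 ± 0.0867 (SE, adjusted p = 0.00736). Both calls were kept in all 16 other settings. Psmd7, the partner of Psmd14 in the lid, rose by 0.18 (adjusted p = 0.0479), a call kept in 3 of 16 settings. Psmd11 overlapped between groups, at 132, 125 and 114 CPM in WT and 124, 129 and 127 CPM in ST. The chaperones that share the Psmd name differed among themselves. Psmd5 stood at 22.7, 20.3 and 19.7 CPM in WT and 17.8, 14.5 and 17.9 CPM in ST, a log2 fold change of -0.32 ± 0.117 (SE, adjusted p = 0.048), called in 6 of 16 other settings. Psmd10, also known as gankyrin, read 13.3, 13.8 and 14.4 CPM in WT and 16.2, 16.6 and 16.9 CPM in ST (0.26, adjusted p = 0.0691). Psmd9 read 19, 21.3 and 22.3 CPM in WT and 21.5, 18.6 and 23.5 CPM in ST, with overlapping groups.

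Several of the calls at 6 months were lost when a heart was left out. This also makes a group smaller, so the part of that heart cannot be told apart from the loss of a replicate. Without the first ST heart 5 of the 34 subunit genes were called, against 31.7% of all genes. Without the first WT heart 5 were called, against 34.5% of all genes, and without the third ST heart 7, against 30.6%. Psmd4, Psmd12 and Psmd14 were called without any one heart. Psma3 was lost without the third WT heart (adjusted p = 0.0626), Psma6 without the first ST heart (0.0556) and Psmc4 without the first WT heart (0.0502). Psmb1 was lost without the first ST heart (0.0501) or the first WT heart (0.0505). Psma2 and Psmd2 were lost without the first or the third ST heart or the first or the second WT heart, with adjusted p of 0.0607 to 0.134 for Psma2 and 0.0585 to 0.122 for Psmd2. Psmd5 and Psmd7 were lost without any one heart, with 0.0565 to 0.159 for Psmd5 and 0.0584 to 0.149 for Psmd7.

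**Figure D3:**
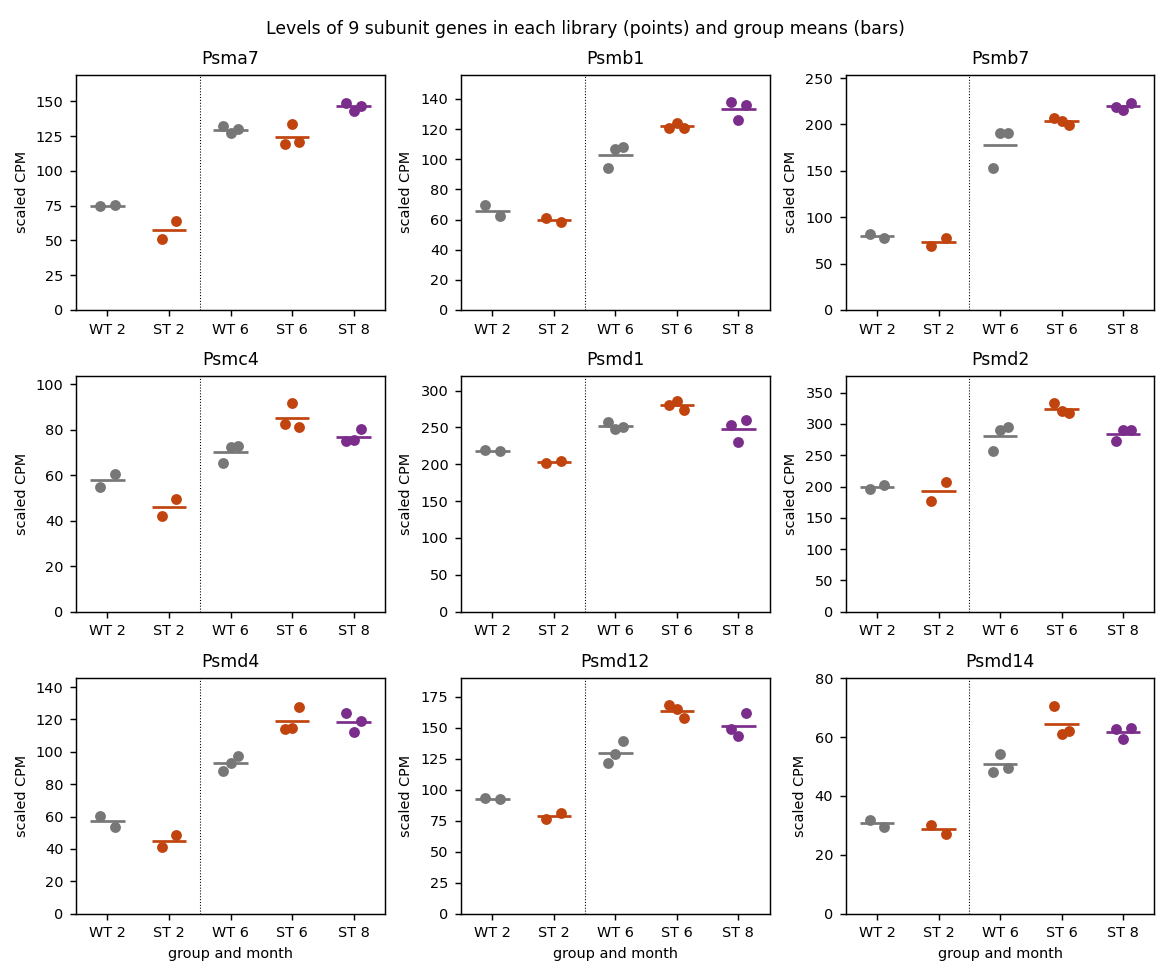
Levels of 9 subunit genes in TMM-scaled CPM in each library (points) with group means (bars), by group and month; the dotted line parts the 2-month table, which is scaled apart. In Psmd4, Psmd12 and Psmd14 all ST hearts of 6 and 8 months lie above all WT hearts of 6 months, while Psma7 is highest in ST at 8 months and Psmd1 and Psmd2 in ST at 6 months.

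The ST hearts of 8 months were compared with those of 6 months. No WT hearts of 8 months are among the samples, so time point, table and group cannot be told apart here or in the next comparison. The ST libraries of 6 months also serve in the comparison of ST with WT at 6 months. A rise there and a fall here are therefore not independent. Psma7 rose and Psmd1 and Psmd2 fell. These 3 calls are 8.82% of the 34 genes tested, against 39.6% of all 12931 genes, of which 19.1% were higher and 20.5% lower. All 34 intervals lay within 1.5-fold either way, and the median over the 34 was 0.00, against 0.02 for all genes tested. The groups did not overlap for 6 genes higher and 9 lower, 44.1% of the 34, against 51% of all genes. The median was 0.07 over the 14 core genes, 10 of them above 0, and -0.07 over the 20 regulatory genes, 13 of them below 0. That difference between the particles is the one seen in the ratio of sums.

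Psma7 stood at 119, 134 and 121 CPM in ST at 6 months and 149, 143 and 147 CPM at 8 months, a log2 fold change of 0.23 ± 0.0672 (SE, adjusted p = 0.0157). The scaffold gene Psmd2 went from 334, 321 and 317 CPM to 272, 291 and 290 CPM, a log2 fold change of -0.19 ± 0.0583 (SE, adjusted p = 0.0207). Psmd1 went from 280, 286 and 274 CPM to 253, 230 and 260 CPM, a log2 fold change of -0.18 ± 0.0625 (SE, adjusted p = 0.039). In each of the 3 the groups did not overlap. Their calls were lost in some fits with a heart left out, which also makes a group smaller. Of the 34 genes 0 were called without the first ST heart of 6 months or the first of 8 months, where 33.2% and 31.6% of all genes were. Without the third of 6 months 1 was called, against 33.6%. In those fits Psma7 had an adjusted p of 0.0591 to 0.0776, Psmd1 of 0.0532 to 0.0723 and Psmd2 of 0.0654 to 0.082 where lost. Psmd1 was also lost without the second heart of 8 months (0.17) and Psma7 without the third (0.052). With library totals alone 4 subunit genes were higher (Psma7, Psmb1, Psmb3 and Psmb7) and 0 lower, and the calls of all genes split into 3072 higher and 2140 lower in place of 2464 and 2651. Psmb1 read 138, 126 and 136 CPM at 8 months (0.13, adjusted p = 0.131), above each of its 6-month values given before. Psmb3 read 60.8, 64.4 and 70.2 CPM (0.18, adjusted p = 0.0931) and Psma5 70.8, 69.3 and 69.5 CPM (-0.11, adjusted p = 0.225). Psmb3 lay above and Psma5 below its 6-month ST values in all 3 hearts. The ATPases Psmc6, at 103, 105 and 101 CPM (-0.15, adjusted p = 0.0824), and Psmc4, at 75, 75.7 and 80.2 CPM (-0.15, adjusted p = 0.131), lay below their ST levels of 6 months in each heart. In the lid Psmd11 read 121, 117 and 109 CPM (-0.14, adjusted p = 0.121) and Psmd12 149, 143 and 162 CPM (-0.12, adjusted p = 0.183). The genes with the highest fold changes at 6 months had no call: Psmd4 read 124, 112 and 119 CPM at 8 months, with a 95% interval of -0.16 to 0.14 for the log2 difference. Psmd14 read 62.9, 59.3 and 63.1 CPM, with an interval of -0.23 to 0.11.

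Other gene groups moved along the same comparison. Of 77 ribosomal protein genes 53 were higher and 2 lower at 8 than at 6 months in ST (median 0.24), and of 23 genes with very long mRNAs 0 were higher and 15 lower (median -0.39). Both lists were chosen after their values were seen. Macrophage markers summed to 65.2 to 78.8 CPM at 8 months and 108 to 152 at 6 months (4 of 7 lower). Fibroblast markers summed to 1140 to 1230 CPM at 8 months against 946 to 1010 (4 of 6 higher, 1 lower). Heart muscle markers summed to 107000 to 109000 CPM at 8 months against 92400 to 98800 at 6 months (4 of 9 higher, 2 lower, median 0.07). Endothelial markers summed to 1120 to 1180 CPM against 935 to 1030 (2 of 6 higher). None of these markers was at 0 in all libraries of a group. The part of these in the small subunit differences was not tested.

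Against the WT hearts of 6 months, the ST hearts of 8 months had 12 subunit genes higher and 0 lower. The 12 are Psma2, Psma3, Psma6, Psma7, Psmb1, Psmb3, Psmb7, Psmd4, Psmd10, Psmd12, Psmd13 and Psmd14. They are 35.3% of the 34 tested, near the 33.9% of all 13095 genes, of which 17.8% were higher and 16.1% lower. Of the core 7 of 14 were called and of the regulatory particle 5 of 20, with medians of 0.22 and 0.08, against -0.01 for all genes tested. All 14 core genes were above 0. The groups did not overlap for 18 genes, all higher in ST, 52.9% of the 34, against 46.7% of all genes. This comparison shares its libraries with those before, so its values are set beside them and not counted as further evidence. Ribosomal protein genes were higher here too (59 of 77, median 0.34) and genes with very long mRNAs lower (19 of 23, median -0.34). Heart muscle markers had 5 of 9 higher and 2 lower (median 0.18), with sums of 107000 to 109000 CPM against 101000 to 107000. Endothelial markers had 4 of 6 higher (1120 to 1180 against 791 to 992 CPM), smooth muscle and pericyte markers 3 of 6 higher and 1 lower (312 to 573 against 247 to 322), and macrophage markers 4 of 7 lower (65.2 to 78.8 against 98.1 to 130). None of these markers was at 0 in every library of a group. The part of all these in the subunit results was not tested.

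The highest fold change was that of Psmb1, 0.38 ± 0.0736 (SE, adjusted p = 0.000786), followed among the called genes by Psmd10 at 0.38 ± 0.117 (SE, adjusted p = 0.0199) and Psmd4 at 0.36 ± 0.0711 (SE, adjusted p = 0.00105). Psmd10 read 18.4, 17 and 18.2 CPM in ST at 8 months, above all its 6-month values. Psmb7, of the trypsin-like activity, read 219, 216 and 223 CPM, against 153, 191 and 191 CPM in WT at 6 months (0.31, adjusted p = 0.00845). Psmd14 had a log2 fold change of 0.30 ± 0.0812 (SE, adjusted p = 0.00995). Psmb1, Psmb7, Psmd4 and Psmd14 kept their calls in all 16 other settings. The other cutting subunits were not called: Psmb5 read 110, 109 and 125 CPM (0.23, adjusted p = 0.066) and Psmb6 98.8, 89.5 and 94.6 CPM (0.16, adjusted p = 0.162). Psma6 read 140, 126 and 140 CPM at 8 months (0.26, adjusted p = 0.0107) and Psma3 94.7, 96.5 and 94.2 CPM (0.24, adjusted p = 0.0126). Psma1 (135, 124 and 123 CPM) and Psma4 (98.8, 107 and 110 CPM) were not called. None of the 6 ATPase genes was called by edgeR, and 1 had an unadjusted p under 0.05, as had 5711 of all 13095 genes. Psmc2 read 157, 156 and 161 CPM (0.15, adjusted p = 0.074) and Psmc1 139, 144 and 134 CPM (0.05, adjusted p = 0.556). The scaffold genes Psmd1 and Psmd2 had log2 fold changes of -0.01 and 0.03, with intervals of -0.15 to 0.13 and -0.12 to 0.18. Psmb4 read 102, 101 and 102 CPM (0.22, adjusted p = 0.133). The chaperone Psmd5, which had fallen at 6 months, read 16.7, 16.2 and 21.6 CPM, with a log2 fold change of -0.18 and an interval of -0.45 to 0.09. Psmd9 read 25, 22 and 23.5 CPM (0.18, adjusted p = 0.233).

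Here too calls were lost when a heart was left out, which also makes a group smaller. Without the third ST heart of 8 months 5 of the 34 genes were called, against 26% of all genes, without the first 8, against 26.9%, and without the second 8, against 27.7%. The lost calls without the third were those of Psma2 (adjusted p = 0.0578), Psma6 (0.0521), Psma7 (0.078), Psmb3 (0.123), Psmd10 (0.0615), Psmd12 (0.115) and Psmd13 (0.127). Psma7 was lost without any one heart but the first WT heart, with 0.0582 to 0.1, and Psmd13 without any but the third WT heart, with 0.053 to 0.127. Without the first WT heart the calls of Psmb3 (0.0603), Psmd10 (0.0522) and Psmd12 (0.0561) ended as well, without the second that of Psmd12 (0.0541) and without the third that of Psmb3 (0.0593). Without the first ST heart Psma6 (0.0509) and Psmd10 (0.0607) were lost, and without the second Psma2 (0.051) and Psmb3 (0.0569). Psma3 kept its call without any one heart. With library totals alone 7 genes were higher and 0 lower, and the calls of all genes split into 1880 higher and 2856 lower in place of 2329 and 2112.

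The ST effect itself was compared between 6 and 2 months, as the fold change of ST to WT at 6 months less that at 2 months, in one fit over the 10 libraries. For 9 of 32 subunit genes this difference passed the threshold, always in the direction of a higher effect at 6 months. They are 28.1% of those tested, against 22.2% of all 12658 genes, of which 10.2% were higher and 12% lower. The difference was 0.71 ± 0.144 (SE, adjusted p = 0.00264) for Psmd4, the largest of the members. It was 0.68 ± 0.181 (SE, adjusted p = 0.0135) for Psmb4 and 0.66 ± 0.19 (SE, adjusted p = 0.0206) for Psma5. These last were called in neither month alone, and their estimates were below 0 at 2 months and above 0 at 6 months. The same holds for Psmd8, at 0.61 ± 0.143 (SE, adjusted p = 0.00615). The others were Psmc4 (0.60), Psmd12 (0.57), Psmd14 (0.44), Psmb1 (0.38) and Psma6 (0.37). Psmd4, Psmd12, Psmd8 and Psmc4 kept the call in all 19 other settings, some of which leave a lone heart in a 2-month group. Calls of those fits are not given singly. Without the first WT heart of 2 months the median difference of the 32 genes was 0.24. Without the first ST heart of 2 months it was 0.18, and without the second 0.33. Psma6, Psmb1 and Psmd14 were each called in 7 or 8 of the 19 settings. With library totals alone 6 subunit genes were called, all higher, and the calls of all genes split into 1005 higher and 1893 lower in place of 1294 and 1517. Over all 32 genes the median difference was 0.24, against -0.02 for all genes tested, with 30 above 0. In the same test fibroblast markers had 4 of 6 lower (median -0.70), mesothelial markers 3 of 4 lower and heart muscle markers 3 higher and 2 lower of 8. Ribosomal protein genes had 7 of 63 higher and 0 lower, and genes with very long mRNAs 1 of 23 higher and 5 lower. The part of these in the subunit differences was not tested. By library totals alone, without TMM factors, the transgene stood at 11.2 and 11 CPM in the ST hearts of 2 months. In those of 6 months it stood at 197, 90.4 and 209 CPM. The tables of these months list 25600 and 38600 names, so the values are not on one scale. Transgene level, table and number of hearts differ between the months and cannot be told apart from time.

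Most subunit differences were under 1.2-fold in each comparison. At 6 months 8 of 34 subunit genes differed by more than 1.2-fold and 0 by more than 1.5-fold. Among 7169 genes in the same range of mean expression, 42.4% and 14.1% did. In ST hearts at 8 against 6 months 0 of 34 went past 1.2-fold, where 41.4% of 6737 genes did. For ST at 8 against WT at 6 months it was 7 of 34 against 37.9% of 7070 genes, and at 2 months 8 of 32 against 28.7% of 6357. The median SD of a subunit gene within a group was 0.0573 to 0.0956 on the log2 scale, and that of genes in the same range 0.0817 to 0.126. The largest SD among subunit genes at 6 months was 0.311, of Psma5 in WT.

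**Figure D4:**
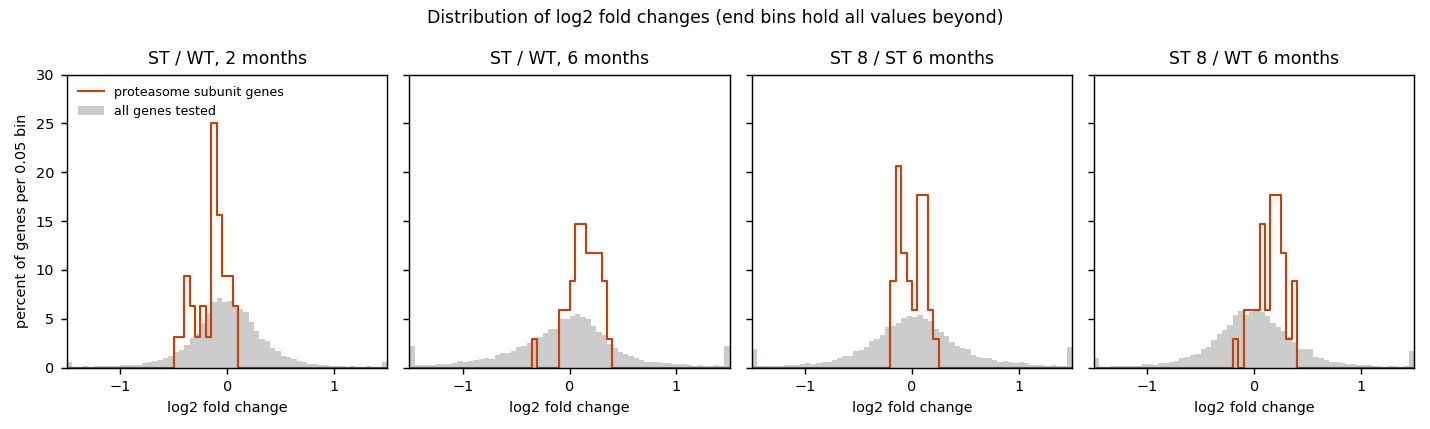
Percent of genes in each 0.05-wide bin of log2 fold change for all genes tested (grey bars) and for the subunit genes (line) in the 4 comparisons; the end bins hold all values beyond. The subunit genes fill a narrow band, from -0.32 to 0.36 at 6 months and from -0.19 to 0.23 in ST at 8 against 6 months.

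Gene copies limit some of these values. RefSeq lists 39 copies or pseudogenes named for 15 of the 36 genes. Psmb6 is the one member with fractional values in every table, of the kind that arises where reads are shared between like sequences, and its copy Psmb6l1 is listed beside it. At 2 months Psmb6l1 held 25.3 and 26 expected counts in WT and 39.6 and 29.1 in ST, beside 275 and 202, and 302 and 246, for Psmb6. At 8 months Psmb6l1 held 31.8, 30.3 and 44.5 expected counts beside 466, 475 and 520 for Psmb6, whereas at 6 months it held 1.03 to 12.8. With both summed, Psmb6 was called in ST at 8 against WT at 6 months, a 13th gene, in an alternative chosen after the data were seen. Psmb6 is therefore uncertain by the size of this share.

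The 3 interferon-inducible subunits that replace cutting subunits in the immunoproteasome were left out of the set above. All 3 fell in ST hearts at 2 months, where 4.8% of all genes were called and none of the constitutive genes was. Psmb9 stood at 9.82 and 8.16 CPM in WT and 3.2 and 2.83 CPM in ST (-1.57 ± 0.267 SE, adjusted p = 0.00197). Psmb8 stood at 11.4 and 10.2 CPM in WT and 3.56 and 5.54 CPM in ST (-1.28, adjusted p = 0.00676), and Psmb10 at 9.26 and 8.31 CPM in WT and 3.56 and 4.83 CPM in ST (-1.09, adjusted p = 0.0219). In each gene both WT hearts lay above both ST hearts. At 6 months Psmb9 fell again, from 13, 13.3 and 15.5 CPM in WT to 8.19, 11.9 and 9.3 in ST (-0.49, adjusted p = 0.0254), and Psmb8 and Psmb10 were not called. The call at 6 months is 33.3% of the 3, against 40% of all genes. In ST at 8 against 6 months Psmb8 (0.37) and Psmb9 (0.62) rose (66.7%, against 39.6%), and against WT at 6 months 0 of 3 were called, with 0 of 3 under an unadjusted p of 0.05. The difference of the ST effect between 6 and 2 months was called for all 3, from 0.95 to 1.11, and for 22.2% of all genes. Beside this, the T, B and NK cell markers summed to 2.04 to 2.79 CPM in WT and 1.06 to 1.33 in ST at 2 months (1 of 7 could be tested, with an unadjusted p under 0.05 but no call by edgeR). Macrophage markers summed to 99 to 132 and 119 to 146 CPM (0 of 7 called by edgeR, 1 with an unadjusted p under 0.05). Their part was not tested.

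Assembly chaperones guide the building of the core. Of 5 genes, 0 of 4 tested were called at 2 months by edgeR (0 with an unadjusted p under 0.05). At 6 months 1 was higher (Psmg2, 0.38, adjusted p = 0.0245), 20% against 40% of all genes. In ST at 8 against 6 months 2 were higher (40%, near the 39.6% of all genes), and against WT at 6 months 4 (80%, against 33.9%). These last comparisons share the 8-month libraries. Pomp, which guides the maturation of the core and is then its first substrate, stood at 112, 120 and 114 CPM in WT and 124, 129 and 122 in ST at 6 months and 155, 169 and 161 in ST at 8 months (0.37 ± 0.0636 SE, adjusted p = 0.000586 against ST at 6 months). Psmg3 stood at 10.7, 8.98 and 9.43 CPM in ST at 6 months and 13.1, 15.4 and 14.7 at 8 months (0.58, adjusted p = 0.00524). Against WT at 6 months Pomp (0.50), Psmg2 (0.54), Psmg3 (0.47) and Psmg4 (0.63) were higher.

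Of the 15 genes of activators and associated proteins, 13 were tested at 2 months with 0 called by edgeR. Of these, 3 had an unadjusted p under 0.05, as had 2259 of all 12121 genes. At 6 months 2 rose and 1 fell (20%, against 40% of all genes). In ST at 8 against 6 months 3 rose and 4 fell (46.7%, against 39.6%). Against WT at 6 months 1 rose and 1 fell (13.3%, against 33.9%). Psme3, an activator of the nuclear proteasome, stood at 80, 75.9 and 79.2 CPM in WT, 106, 95.9 and 108 in ST at 6 months and 82.2, 73.3 and 83.8 at 8 months. It rose at 6 months (0.40 ± 0.0714 SE, adjusted p = 0.000923) and fell from 6 to 8 months (-0.37, adjusted p = 0.00179). Both values rest on the same ST libraries of 6 months. Psme4, of another activator, stood at 239, 259 and 229 CPM in WT, 194, 198 and 194 in ST at 6 months and 174, 179 and 192 at 8 months, lower in ST at both times (-0.31 and -0.40). Zfand2a, a stress-inducible partner, rose by 0.39 at 6 months. Sem1, a small lid subunit without a Psmd name, rose in ST at 8 against 6 months (0.43 ± 0.0671 SE, adjusted p = 0.000271). The ubiquitin receptor Adrm1 fell in that comparison (-0.31, adjusted p = 0.0128), as did Ecpas and Zfand2a, while Psme1 and Uchl5 rose.

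Among 8 regulators of proteasome gene transcription, Nfe2l1 itself was not called in any comparison. It stood at 713, 750 and 716 CPM in WT and 711, 692 and 757 CPM in ST at 6 months, with an interval of -0.15 to 0.13 for the log2 difference. Its small Maf partners differed: Maff stood at 13, 16.4 and 18.9 CPM in WT, 80.9, 73.2 and 72.3 in ST at 6 months and 16.3, 15.1 and 20.7 in ST at 8 months. It rose at 6 months (2.23 ± 0.119 SE, adjusted p = 6.45e-08) and fell from 6 to 8 months (-2.11, adjusted p = 1.4e-08), and it was also higher at 2 months (0.93, adjusted p = 0.0224). Mafk followed the same course without the call at 2 months, with 1.06 at 6 months and -0.90 from 6 to 8 months. Hsf1, of the heat shock response, rose at 6 months (0.37) and was lower in ST at 8 than at 6 months (-0.33). For Maff, Mafk and Hsf1 both comparisons share the ST libraries of 6 months, so rise and fall are not separate findings. At 2 months 1 of the 8 was called (12.5%, against 4.8% of all genes), and at 6 months 3 were higher and 0 lower (37.5%, against 40%). In ST at 8 against 6 months 5 of the 8 were lower and 0 higher (62.5%, against 39.6%). Against WT at 6 months 2 were lower (Mafg and Ddi2) and 0 higher (25%, against 33.9%).

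Of 11 genes that deliver substrate to the proteasome 5 rose and 1 fell at 6 months (54.5%, against 40% of all genes). In ST at 8 against 6 months 0 rose and 7 fell (63.6%, against 39.6%). The shuttle genes split at 6 months: Rad23b (0.32), Ubqln1 (0.34) and Ubqln4 (0.32) rose, and Ubqln2 (-0.57) fell. Nploc4, a cofactor of the Vcp segregase, rose at 6 months (0.31) and was lower in ST at 8 than at 6 months (-0.56). So was Sqstm1, the link to autophagy (0.28 and -0.41). These comparisons share the ST libraries of 6 months, so rise and fall are not separate findings. At 2 months 0 of the 11 were called by edgeR, and 3 had an unadjusted p under 0.05, as had 2259 of all 12121 genes. Against WT at 6 months 3 were higher and 2 lower at 8 months (45.5%, against 33.9% of all genes). Of 4 ubiquitin and E1 genes 0 were called at 2 months by edgeR (0 with an unadjusted p under 0.05). At 6 months 0 rose and 1 fell (25%, against 40%). In ST at 8 against 6 months 2 rose and 1 fell (75%, against 39.6%), and 2 rose against WT at 6 months (50%, against 33.9%). Ubb, a gene of several joined ubiquitin units, stood at 850, 786 and 791 CPM in WT, 714, 609 and 709 in ST at 6 months and 1060, 1030 and 1080 at 8 months. It fell at 6 months (-0.25, adjusted p = 0.018) and was higher at 8 months (0.64 against ST at 6 months). All of these lists were read as counts beside the shares of all genes given above, and nothing particular to a list was tested.

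**Figure D5:**
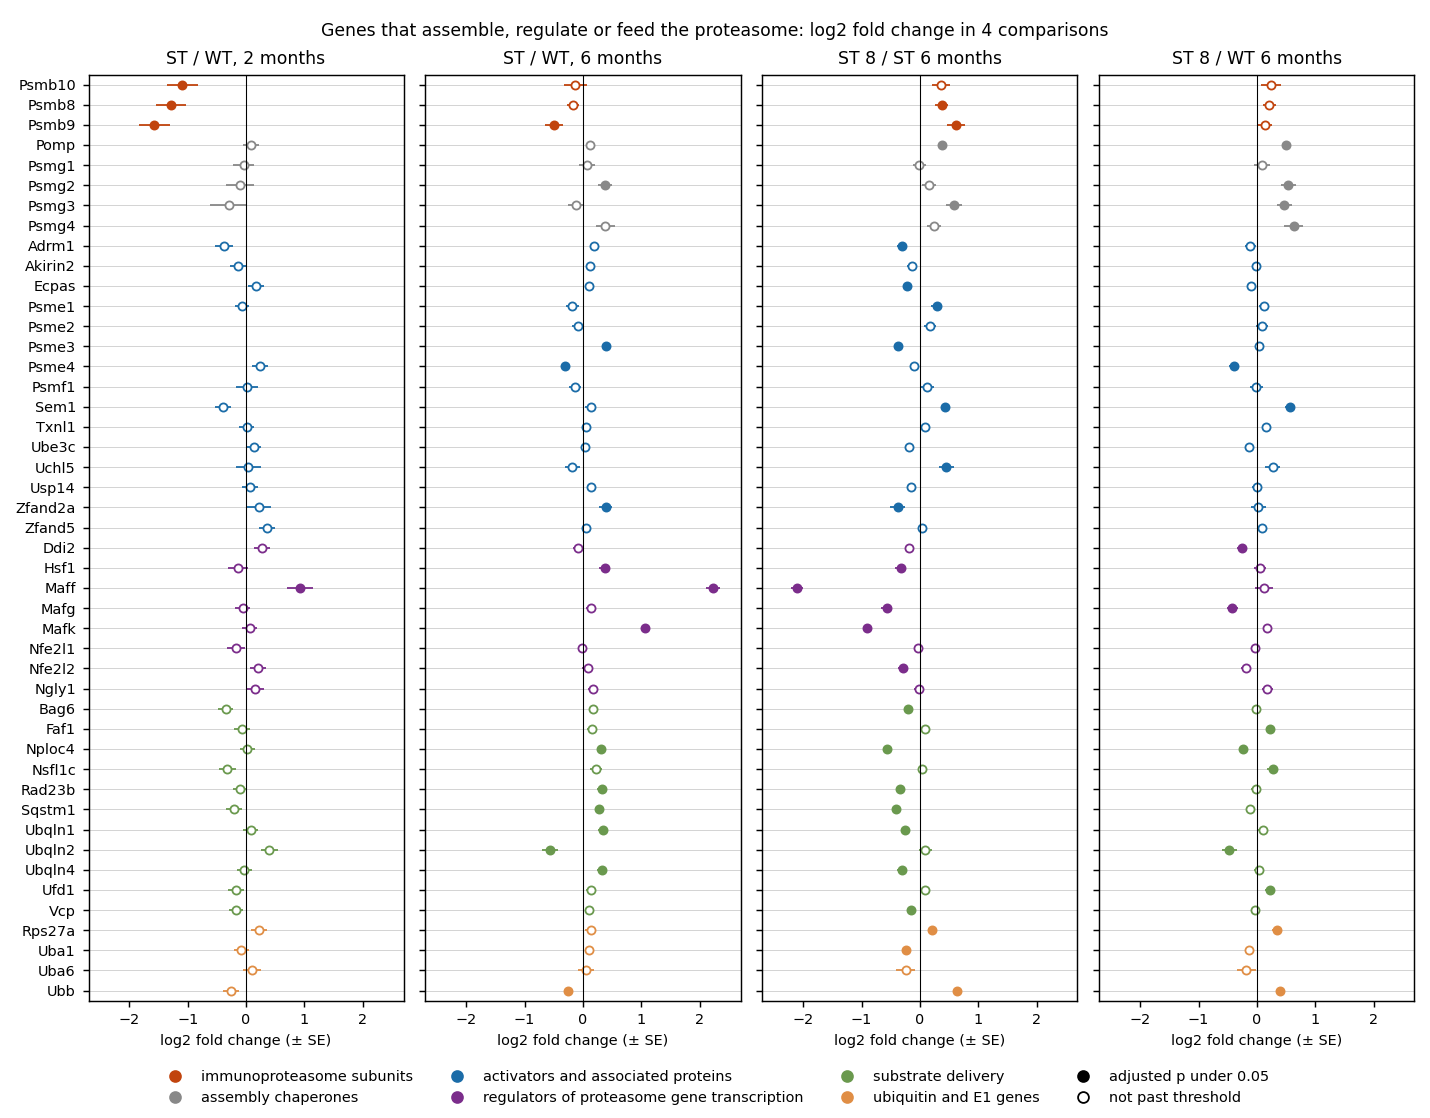
Log2 fold change ± SE of genes that assemble, regulate or feed the proteasome, by list, in the 4 comparisons; filled points have an edgeR adjusted p under 0.05. The 3 immunoproteasome genes are filled and below 0 at 2 months, and Maff lies at 2.23 in ST against WT at 6 months and at -2.11 in ST at 8 against 6 months.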

How the data were processed

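RNA of rat heart tissue was measured in 13 libraries in 3 tables of 1 time point each. The authors deposited expected counts per gene, which are mostly whole numbers with a minority of fractions. The submitters' processing notes name the builds GRCm38 and mm10, although the gene names are rat symbols, and the aligner and counter are not given in the sources used here. Counts were rounded and each comparison was fitted on its own libraries with edgeR 4.0.16 in R 4.3.3 (filterByExpr, TMM, glmQLFit, glmQLFTest, two-sided), with Benjamini-Hochberg adjustment over all genes tested and a threshold of 0.05. A gene listed in only 1 kind of table is absent from comparisons across tables. The SE is the absolute log2 fold change over the square root of F, and intervals have a confidence of 95%. Library totals limit precision, and the floor of 3 counts covers counting error only. Alternatives were DESeq2 1.42.0, limma-voom (limma 3.58.1), other size factors, library totals alone, no filter, a 5 CPM filter, a replicate block, a fit over all 5 groups, dropping genes of the mitochondrial genome and haemoglobins, and omitting single libraries. No library pair looked like a repeat deposit of 1 library (chi-square over degrees of freedom of at least 1.85). The values were uneven. At 6 months ST hearts 1 and 3 had 1.85 and WT hearts 2 and 3 had 2.04, and pairs of 8 months had 2.04 to 2.21. The pairs of 2 months and those with the second ST or first WT heart of 6 months had 6.36 to 11.5. Whether the closer libraries share a heart or a pool cannot be told from this check, and the tests take each library as its own heart.

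Every gene that meets the name rule may be named; levels in each library are given for 19 fixed members and the 2 with the smallest p per role and comparison, and listed genes were named where called. A few genes of the substrate delivery and ubiquitin lists are not reported here. Members, gene lists and tests were chosen with earlier results of these data known. Promoter windows came from RefSeq (GRCr8).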

Additional observations from a re-analysis of the deposited data

Results flagged for a closer look

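For 9 subunit genes the ST effect differed between 6 and 2 months by a test of the difference itself in edgeR, with the effect at 6 months higher in each. The log2 difference was 0.71 for Psmd4 (adjusted p = 0.00264), 0.57 for Psmd12 (0.0041), 0.61 for Psmd8 (0.00615), 0.60 for Psmc4 (0.00726) and 0.68 for Psmb4 (0.0135). It was 0.66 for Psma5 (0.0206), 0.37 for Psma6 (0.0414), 0.44 for Psmd14 (0.0474) and 0.38 for Psmb1 (0.0474). The median difference over the 32 genes was 0.24 without the first WT heart of 2 months and 0.29 without the second. It was 0.18 without the first ST heart of 2 months and 0.33 without the second, in place of 0.24. Each of these fits leaves a lone heart in a group, so its calls are not given. With all libraries the share called over all genes was 22.2%. The groups have 2 or 3 hearts each, so no search for outlying libraries was made.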

How the results depend on the processing

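No called subunit gene changed sign in any alternative. Counts of fits that leave a lone heart in a group are set aside here. The number of subunit genes called at 2 months was 1 with no filter and 3 in one fit over all 5 groups. At 6 months it was 4 with library totals alone and 5 to 10 when one library was left out. In ST at 8 against 6 months it was 1 in one fit over all 5 groups and 0 to 3 when one library was left out. In ST at 8 against WT at 6 months it was 7 with library totals alone and 5 to 12 when one library was left out. For the difference of effects it was 6 or 7 when a library of 6 months was left out. DESeq2 called 0, 8, 3, 8 and 6 genes in these comparisons, in that order, in place of 0, 11, 3, 12 and 9. Over all genes at 2 months it called 355 in place of 582, with no filter 1019 and in one fit 1237. A lone library left in a group of 2 was taken to vary like the other groups.

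The hearts were treated as unpaired, and whether replicate numbers pair them is not settled here. Deviations of same-numbered libraries correlated at 0.0712 at 2 months, where those of 2 hearts mirror each other, so this value cannot decide it. They correlated at 0.0039 to 0.111 at 6 months and at 0.0378 to 0.178 between ST at 8 and 6 months. Between ST at 8 and WT at 6 months it was 0.0262 to 0.0404 (n = 3 a group at 6 and 8 months). These values are low but all above 0. Every library correlated best with its own number in the last comparison and not in the other 2 with 3 pairs. With the replicate block 0, 12, 3, 14 and 7 subunit genes were called. With 2 hearts a group at 2 months, the 95% interval reached beyond 1.5-fold in 7 of 32 genes.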
